A study of Mus musculus with 18 samples.

Results

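Primary mouse renal tubular epithelial cells (RPTEC) that received only vehicle were compared at 24 h and at 6 h, so that the 3 vehicle samples collected at 24 h stood against the 3 collected at 6 h. These 6 of the 18 samples of the study were selected by their labels for treatment and time, and the comparison was made over the 15521 genes, of 36528 listed, with more than 10 reads in at least 4 of the 18 samples. The cells were C57BL/6 renal tubulointerstitial epithelial cells bought from ScienCell and kept in EpiCM-a medium with the vendor's supplements, and the vehicle was DMSO. The other arms received TWEAK at 100 ng/mL or TWEAK with 3 µM NIK SMI1, an inhibitor of the NF-κB-inducing kinase NIK. Each had 3 samples at 6 h and 3 at 24 h. These arms share no sample with the vehicle arm, and the same genes are set beside them below. All 18 samples were fitted together as 6 groups, so SEs and p-values of the vehicle comparison also draw on the spread within the treated arms. No separate animals or cell preparations are named, so SDs and p-values measure the spread between culture samples. No sample taken before the vehicle was added was analysed here, and culture time and harvest cannot be told apart.

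Tubular epithelial cells placed in culture lose many of the transport functions they have in the kidney and take on the programme of a proliferating epithelium. Immediate early genes answer serum, growth factors and handling within minutes to hours and are shut off again by feedback. Metallothioneins are small cysteine-rich proteins that bind zinc, copper and cadmium, and their genes are switched on by the metal-sensing factor MTF1 through metal response elements. Genes of DNA replication are driven by E2F factors, and genes of mitosis peak later in the cycle under B-MYB and FOXM1.

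The label of an epithelial culture was checked against markers before the results. The vehicle samples held between 19711692 and 51956444 counted reads, the 24 h samples 2 and 3 being the shallowest, and levels are given as CPM, a gene's reads scaled to a common library size after TMM normalization, which compares a gene with itself between samples. The keratin gene Krt18 lay between 4050.0 and 5024 CPM and the E-cadherin gene Cdh1 between 1071 and 1443 CPM. Pax8, a factor of the nephron lineage, lay between 38.6 and 49.4 CPM. The defining transporters of the proximal tubule Slc34a1, Slc22a6 and Slc22a8 had 0 reads in all 6 vehicle samples, and so did Umod of the thick limb and Aqp2 of the collecting duct. The megalin gene Lrp2 had 6 to 15 reads a sample and Hnf4a at most 1, whereas the cubilin gene Cubn had 80 to 186 and the glucose transporter gene Slc5a2 132 to 360. Other members of the proximal tubule list were well expressed. The bicarbonate transporter gene Slc4a4 lay between 205 and 244 CPM at 6 h and between 190 and 195 CPM at 24 h. Ass1 lay between 40.5 and 42.6 CPM and between 33.7 and 34.3 CPM. By these genes the cultures were epithelial and of nephron lineage. They lacked reads of some defining transporters of a differentiated proximal tubule and kept Slc4a4. Of 8 leukocyte markers, 1 (Cd68) was expressed well enough to be tested, Lyz2 and Cd3e had 0 reads, and the summed level of the list was 12.9 to 13.8 CPM at 6 h and 12.8 to 14.5 CPM at 24 h. The 6 fibroblast markers summed to 12.5 to 13.8 CPM at 6 h and 11.5 to 11.8 CPM at 24 h, nearly all of it Col1a1, with Lum at 0. The 7 endothelial markers summed to 34.8 to 37.3 and 27.4 to 29.7 CPM, mostly Flt1, with Emcn at 0. Reads of pancreatic islet genes were present, mostly of Ins2, Iapp and Chga, while Pyy and Ppy had 0 reads. The 8 islet markers summed to 15.6 to 19.2 CPM at 6 h and 13.9 to 19.1 CPM at 24 h. In the vehicle arm 0 of the 5 tested islet genes changed between the times. With time in the treated arms used below for comparison, 4 of the 5 fell in TWEAK cultures and all 5 with TWEAK and NIK SMI1. Over all tested genes 17.8% and 17.1% fell in these arms. The median log2 fold change of the 5 islet genes was -2.04 in TWEAK cultures and -6.68 with TWEAK and NIK SMI1. Their difference from vehicle passed the test for 3 and 4 of them. The part of the islet reads in the results of the treated arms was not tested.

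With time in vehicle alone, transcripts of mitosis and DNA replication rose, those of immediate early factors mostly fell, and the largest falls above 1 CPM were those of Mt1 and Mt2. At an adjusted p under 0.05, 2407 genes rose (15.5% of those tested) and 2233 fell (14.4%), but most changes were small, with a median size of 0.27 on the log2 scale. More than 2-fold, 264 genes rose (1.7%) and 75 fell (0.483%), 1 rising and 8 falling over 4-fold. The 1 risen over 4-fold, Efcab12 (log2 fold change 2.42, mean 0.137 CPM), and 5 of the 8 fallen, Gm32605, Fxyd2, Atp13a4, Sox8 and Gm8256, averaged 0.226 CPM or less, were too low for the naming rule and are named here after their values were seen. The other 3 were Mt2, Mt1 and Sprr2h. Among these, the 3 samples of one time did not overlap the 3 of the other in 259 of the 264 risen and 70 of the 75 fallen genes. Over all tested genes, 21.3% had all 24 h samples above all 6 h samples and 19.1% all below. With 3 samples at each time the smallest p of an exact permutation test is 0.1 for any single gene, so the adjusted p-values come from the edgeR fit across all genes. The first principal component of the vehicle samples held 64.0% of the variance and separated the times, while the second held 13.1% and mainly set 6 h sample 1 apart. The 100 most abundant genes took 16.6% to 17.0% of the reads at 6 h and 15.3% to 15.6% at 24 h. In bulk RNA, a change in the number of cells of a kind and a change in RNA per cell cannot be told apart.

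**Figure D1:**
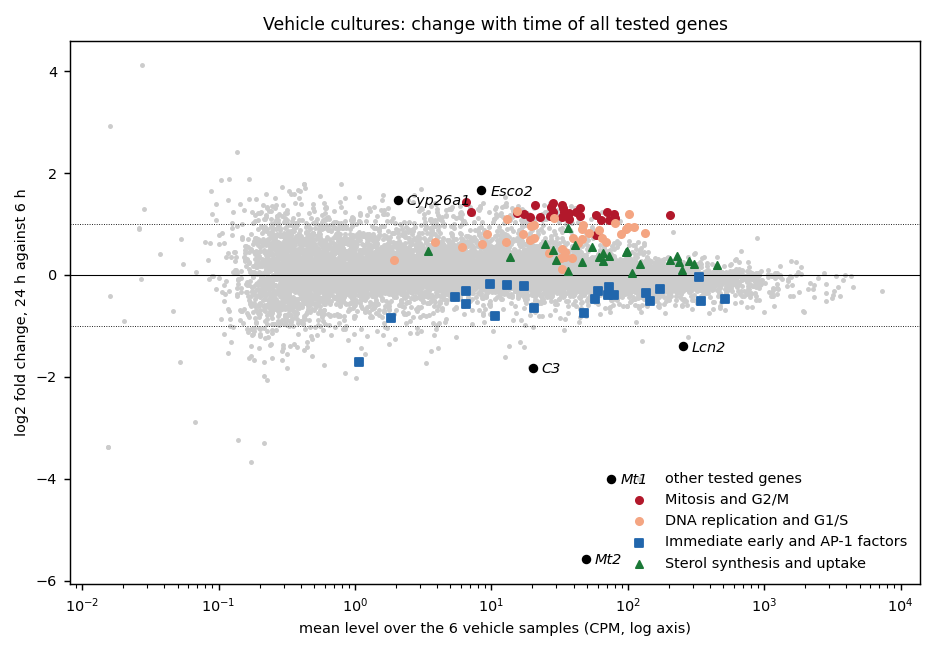
Log2 fold change between 24 h and 6 h in vehicle cultures against the mean level over the 6 samples (CPM, log axis) for all 15521 tested genes, with 4 gene lists coloured, 6 genes labelled and dotted lines at 2-fold. Of the 30 mitosis genes 29 lie above the upper line, the immediate early genes lie below 0, and Mt1 and Mt2 far below every other gene of their level.

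The largest falls belonged to the metallothionein genes Mt1 and Mt2. Their promoter windows, from 250 bases before to 50 bases after the annotated start, are shown because both genes carry several cores of the metal response element in them (RefSeq, GRCm38.p6, Mt1 at chr8:94178839-94179138 and Mt2 at chr8:94172368-94172667, both on the plus strand). Capitals mark the core TGCACNC or TGCGCNC on either strand, both patterns being searched with overlaps allowed.
Mt1: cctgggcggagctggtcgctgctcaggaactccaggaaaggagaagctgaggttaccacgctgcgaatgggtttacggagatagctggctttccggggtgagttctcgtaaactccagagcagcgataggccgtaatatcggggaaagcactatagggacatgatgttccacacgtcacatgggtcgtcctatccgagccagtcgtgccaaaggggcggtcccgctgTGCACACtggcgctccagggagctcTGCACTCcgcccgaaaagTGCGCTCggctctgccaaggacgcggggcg
Mt2: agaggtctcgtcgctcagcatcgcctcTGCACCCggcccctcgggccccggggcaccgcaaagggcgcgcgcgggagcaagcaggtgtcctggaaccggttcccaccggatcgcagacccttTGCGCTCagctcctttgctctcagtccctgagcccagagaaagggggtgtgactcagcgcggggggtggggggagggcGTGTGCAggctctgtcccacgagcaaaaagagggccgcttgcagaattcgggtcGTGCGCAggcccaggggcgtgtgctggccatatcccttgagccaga
The Mt1 window held 3 cores and the Mt2 window 4. Of all 32851 windows of that length, 25.7% held at least 1 core, 7.11% at least 2, 1.97% at least 3 and 0.517% at least 4. The window of Slc30a1, a gene described below that rose with time, held 2 cores. A match is a description of the letters and does not show that a factor binds there.

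Mt2 was at 82.3, 95.3 and 111 CPM in the 3 samples at 6 h and at 2.15, 1.79 and 2.00 CPM at 24 h. Mt1 was at 120.3, 139.8 and 166 CPM at 6 h and at 7.88, 8.53 and 10.99 CPM at 24 h. Every 6 h sample stood far above every 24 h sample in both genes. Mt2 was 47.7-fold lower at 24 h (log2 fold change -5.58, SE 0.17, adjusted p = 3.41e-18) and Mt1 was 16.02-fold lower (-4.0, SE 0.13, adjusted p = 5.66e-18).

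Other genes of metal and oxidant handling moved less and not all one way. Of the 18 tested genes of the NRF2 and metal response list, 2 rose and 10 fell, beside 15.5% and 14.4% of all tested genes. Their median log2 fold change was -0.19 beside 0.005 over all tested genes. Slc30a1, which exports zinc from the cytosol and is also a target of MTF1, was at 8.76, 9.62 and 9.81 CPM at 6 h and 12.7, 14.3 and 12.2 CPM at 24 h. It rose without overlap of the samples (log2 fold change 0.47, SE 0.08, adjusted p = 3.15e-05). Gclc, a subunit of the enzyme that starts glutathione synthesis, was the other member that rose (0.31). Slc39a4, a zinc importer of the plasma membrane that was picked out after its values were seen, was at 5.81, 5.76 and 6.18 CPM at 6 h and 2.08, 1.88 and 2.71 CPM at 24 h. It fell 2.69-fold (log2 fold change -1.43, SE 0.13, adjusted p = 1.16e-09). Hmox1, heme oxygenase 1, fell from 155 ± 6.17 to 94.1 ± 4.18 CPM (SD, n = 3 each, log2 fold change -0.72), and the cystine transporter gene Slc7a11 fell from 18.8 ± 1.34 to 11.2 ± 0.473 CPM (-0.74). Nqo1, a standard NRF2 target, was at 2.27 ± 0.306 and 1.98 ± 0.541 CPM and did not pass the test (adjusted p = 0.395).

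Genes of mitosis rose together. All 30 tested members of the mitosis and G2/M list rose, 29 of them more than 2-fold, with a median log2 fold change of 1.20 and values from 0.78 to 1.44. The background for a rise was 15.5% of tested genes, and for a rise over 2-fold 1.7%. The summed level of the list was between 789 and 823 CPM in the 6 h samples and between 1797 and 1837 CPM in the 24 h samples.

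Promoter windows of Plk1 and Ccnb1 are shown as examples of a mitosis gene whose window holds both motifs searched for this list, Plk1, and of one whose window holds only the CCAAT box, Ccnb1 (RefSeq, GRCm38.p6, Plk1 at chr7:122159185-122159484 on the plus strand and Ccnb1 at chr13:100786437-100786736 on the minus strand). Capitals mark the cell cycle homology region TTTGAA and the CCAAT box CCAAT, each searched on both strands.
Plk1: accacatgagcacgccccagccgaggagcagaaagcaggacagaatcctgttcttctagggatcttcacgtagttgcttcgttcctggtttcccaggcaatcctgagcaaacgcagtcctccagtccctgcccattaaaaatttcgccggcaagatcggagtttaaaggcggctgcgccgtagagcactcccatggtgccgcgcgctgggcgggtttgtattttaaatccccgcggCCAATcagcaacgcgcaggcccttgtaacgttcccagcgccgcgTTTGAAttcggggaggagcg
Ccnb1: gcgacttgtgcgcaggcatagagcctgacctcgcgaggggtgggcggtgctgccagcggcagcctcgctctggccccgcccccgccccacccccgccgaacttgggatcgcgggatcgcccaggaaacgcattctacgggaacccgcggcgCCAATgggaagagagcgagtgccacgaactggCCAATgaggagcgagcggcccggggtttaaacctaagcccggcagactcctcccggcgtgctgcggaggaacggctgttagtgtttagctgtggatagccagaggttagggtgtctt
The Plk1 window held 1 CCAAT box and, after the start, 1 cell cycle homology region. The Ccnb1 window held 2 CCAAT boxes and no TTTGAA, the only form of the cell cycle homology region that was searched. Among the 26 windows of the 25 mitosis genes with an entry, 76.9% held the cell cycle homology region and 84.6% a CCAAT box, against 17.9% and 37.4% of all windows. For the replication list, 30.6% of 36 windows held an E2F site (TTTGGCGC or TTTCGCGC on either strand) against 0.8% of all windows. These shares describe the letters in the windows and carry no test.

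**Figure D2:**
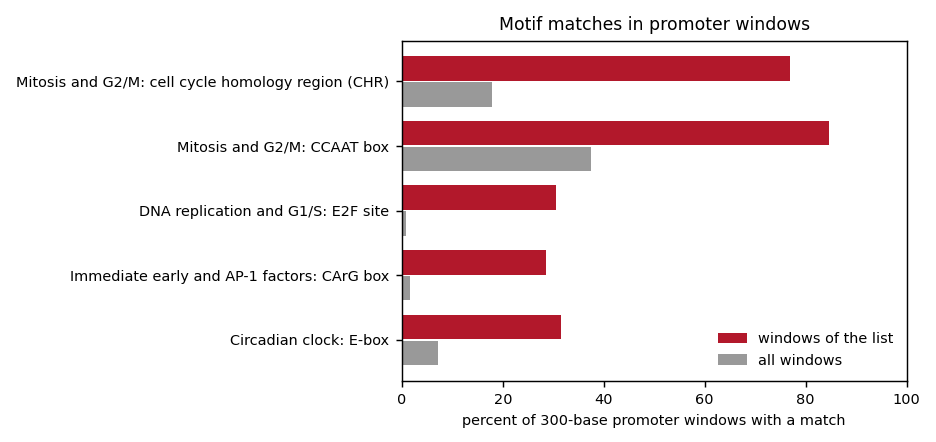
Percent of promoter windows, each from 250 bases before to 50 after a start, with a motif match, for the windows of a gene list (red) and for all 32851 windows (grey). The shares in the lists lie above those of all windows for each of the 5 pairs, from 84.6% against 37.4% for the CCAAT box in mitosis genes to 28.6% against 1.6% for the CArG box in immediate early genes, where 4 of the 6 windows with a match are of Egr2.

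Ccnb1, cyclin B1 and the partner of CDK1 at mitotic entry, was at 3.49, 3.37 and 3.78 CPM at 6 h and 10.4, 8.98 and 9.32 CPM at 24 h. The lowest 24 h sample was above the highest 6 h sample, and the gene rose 2.71-fold (log2 fold change 1.44, SE 0.10, adjusted p = 2.02e-11). Aurkb, the kinase of the chromosomal passenger complex, was at 16.6, 14.4 and 15.3 CPM at 6 h and 38.6, 43.5 and 42.1 CPM at 24 h. It rose by a log2 fold change of 1.42 (SE 0.06, adjusted p = 2.77e-16), again without overlap. Plk1, a kinase of mitotic entry and spindle assembly, rose from 17.2 ± 0.433 to 38.8 ± 0.509 CPM (SD, n = 3 each, log2 fold change 1.17). The proliferation marker gene Mki67 rose from 42.2 ± 5.24 to 98.1 ± 7.06 CPM, Top2a, the topoisomerase of mitotic chromosomes, from 125 ± 6.42 to 281 ± 9.52 CPM, and Cdk1 from 50.9 ± 0.555 to 110.4 ± 3.76 CPM. Nusap1, a spindle protein, had a log2 fold change of 1.37. The times did not overlap in any of these genes.

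The 10 genes that rose most by the rule for named genes also included Ccnb1 and Cyp26a1, and the others were of mixed kind. Esco2, which acetylates cohesin during replication, was at 4.43, 3.72 and 4.06 CPM at 6 h and 13.2, 11.5 and 13.6 CPM at 24 h, a log2 fold change of 1.66 (SE 0.10, adjusted p = 1.03e-12). Fam83d, which brings casein kinase 1 to the spindle, rose from 6.52 ± 0.381 to 18.8 ± 1.32 CPM (1.52). The DNA glycosylase gene Neil3 rose from 1.46 ± 0.326 to 4.67 ± 0.530 CPM (1.68), and Mxd3, of the MAX dimerization family, from 1.37 ± 0.0695 to 4.01 ± 0.521 CPM (1.57). Arhgap33, a GTPase activating protein, had a log2 fold change of 1.79 at a low level, 0.341 ± 0.152 CPM at 6 h and 1.24 ± 0.272 CPM at 24 h, with an SE of 0.34. Mns1 (1.57) and Cfap100 (1.48), which encode proteins of cilia and flagella, and the uncharacterised 4930558J18Rik (1.51) rose between levels of 0.438 and 2.37 CPM. These low genes rest on few reads, and their SEs were 0.20 to 0.33.

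DNA replication genes rose as well, by less. Of 37 tested members 35 rose and 0 fell, 5 of them more than 2-fold, and the median log2 fold change was 0.73. The exceptions were Cdc25a (0.11) and E2f2 (0.29), which did not pass the test. Rrm2, the regulated subunit of ribonucleotide reductase, was at 64.9, 60.6 and 60.0 CPM at 6 h and 143, 142 and 138 CPM at 24 h. The samples of each time lay close together and far from the other time (log2 fold change 1.19, SE 0.04, adjusted p = 3.60e-18). The replication initiation factor gene Mcm10 had a log2 fold change of 1.25, the thymidine kinase gene Tk1 1.11 and the helicase subunit gene Mcm2 0.91. Genes that act at the G1 to S transition moved least among those named, with 0.44 for the cyclin gene Ccne1 and 0.33 for E2f1. In the list of p53 targets and CDK inhibitors, 5 of 24 rose and 4 fell, which is near the background in both directions. Cdkn2c, an inhibitor of CDK4 and CDK6 that is itself expressed in cycling cells, rose from 2.40 ± 0.325 to 5.65 ± 0.531 CPM (log2 fold change 1.23), and Cdkn1a, the p21 gene, fell from 792 ± 12.3 to 633 ± 0.345 CPM (-0.32).

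Growth factor signalling transcripts moved the other way. Of 22 tested immediate early and AP-1 factors 0 rose and 20 fell, with a median log2 fold change of -0.41, against a background of 14.4% for a fall. Jund (-0.04) and Nr4a2 (-0.19) did not pass the test. Egr2, a zinc finger factor of this class, has a CArG box, the site of serum response factor, in 4 of its 5 RefSeq windows, 3 of which overlap and share 1 box, and 1 of these is shown for that reason (GRCm38.p6, chr10:67537619-67537918, plus strand, capitals mark the CArG box).
Egr2: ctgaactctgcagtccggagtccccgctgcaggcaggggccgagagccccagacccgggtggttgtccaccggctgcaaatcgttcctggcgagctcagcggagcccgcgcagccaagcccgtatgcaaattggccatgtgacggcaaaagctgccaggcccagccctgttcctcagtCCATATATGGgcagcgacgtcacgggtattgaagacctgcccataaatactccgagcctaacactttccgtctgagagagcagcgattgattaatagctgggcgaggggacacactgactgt
Of the 21 windows of 17 list members with an entry, 28.6% held a CArG box, against 1.6% of all windows. These 6 windows belonged to 3 of the 17 genes, and 4 of them were the Egr2 windows, so the share rests mainly on that gene.

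Egr2 was at 1.58, 1.604 and 1.77 CPM at 6 h and 0.548, 0.446 and 0.476 CPM at 24 h. It was the only member to fall more than 2-fold (log2 fold change -1.72, SE 0.24, adjusted p = 2.35e-06). Egr1 was at 58.4, 61.5 and 60.9 CPM at 6 h and 34.9, 36.0 and 36.5 CPM at 24 h, without overlap (log2 fold change -0.76, SE 0.05, adjusted p = 2.12e-12). The stress-induced factor gene Atf3 fell from 24.8 ± 0.920 to 15.9 ± 0.335 CPM (-0.65). Smaller falls were those of Fos (-0.42), Jun (-0.32) and Myc (-0.27).

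Most transcripts of EGF receptors and ligands and of the ERK feedback list fell in the same samples, and a link between them was not tested. Of 12 tested EGF receptors and ligands 9 fell and 0 rose (median log2 fold change -0.34), beside 14.4% and 15.5% of all tested genes. The amphiregulin gene Areg was at 60.8, 65.2 and 64.0 CPM at 6 h and 37.6, 36.3 and 34.7 CPM at 24 h, a log2 fold change of -0.80 (SE 0.06, adjusted p = 5.93e-12). The ligand genes Hbegf (-0.47) and Ereg (-0.49) fell by less, and the receptor gene Egfr fell from 191 ± 14.7 to 165 ± 0.494 CPM (-0.21). Of 18 tested genes of ERK feedback 11 fell and 2 rose, the 2 being Etv5 (0.32) and Spry1 (0.39). These rises did not exceed the background of 15.5%. The ERK phosphatase gene Dusp5 fell from 83.7 ± 4.38 to 53.1 ± 0.839 CPM (-0.65), Phlda1 from 365 ± 10.8 to 229 ± 4.54 CPM (-0.67) and the feedback inhibitor gene Spry4 from 19.8 ± 0.928 to 15.3 ± 0.617 CPM (-0.38).

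Targets of YAP and genes of wound matrix fell in part. Of 17 tested YAP/TEAD targets 9 fell and 2 rose (Gadd45b, 0.10, and Ptpn14, 0.15). Over all tested genes 14.4% fell and 15.5% rose, so these rises did not exceed the background. The matricellular protein genes Ccn1 and Ccn2, the best known of these targets, fell from 578 ± 10.04 to 378 ± 8.55 CPM (log2 fold change -0.61) and from 3603 ± 57.4 to 2645 ± 42.0 CPM (-0.45). The tissue factor gene F3 fell from 91.5 ± 1.24 to 55.3 ± 1.56 CPM (-0.72).

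Of 25 tested collagen and matrix genes 10 fell and 2 rose (Sparc, 0.17, and Col6a1, 0.74). Of 14 matrix proteases and inhibitors 7 fell and 2 rose (Timp2, 0.11, and Plau, 0.26). The background was 14.4% for a fall and 15.5% for a rise, which the rises in these lists did not exceed. The laminin chain genes Lamb3 and Lama3 had log2 fold changes of -0.73 and -0.55, and the fibronectin gene Fn1 fell from 8076 ± 1089.9 to 6468 ± 388 CPM (-0.32). Plaur, the urokinase receptor gene, was at 150.3, 154 and 146 CPM at 6 h and 76.9, 79.6 and 81.4 CPM at 24 h (log2 fold change -0.92, SE 0.04, adjusted p = 3.54e-16), with no overlap. The gelatinase gene Mmp9 fell from 3.83 ± 0.708 to 1.84 ± 0.0401 CPM (-1.04). Among the actin and SRF targets, 6 of 11 fell and 0 rose, with the focal adhesion gene Zyx at -0.53.

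**Figure D3:**
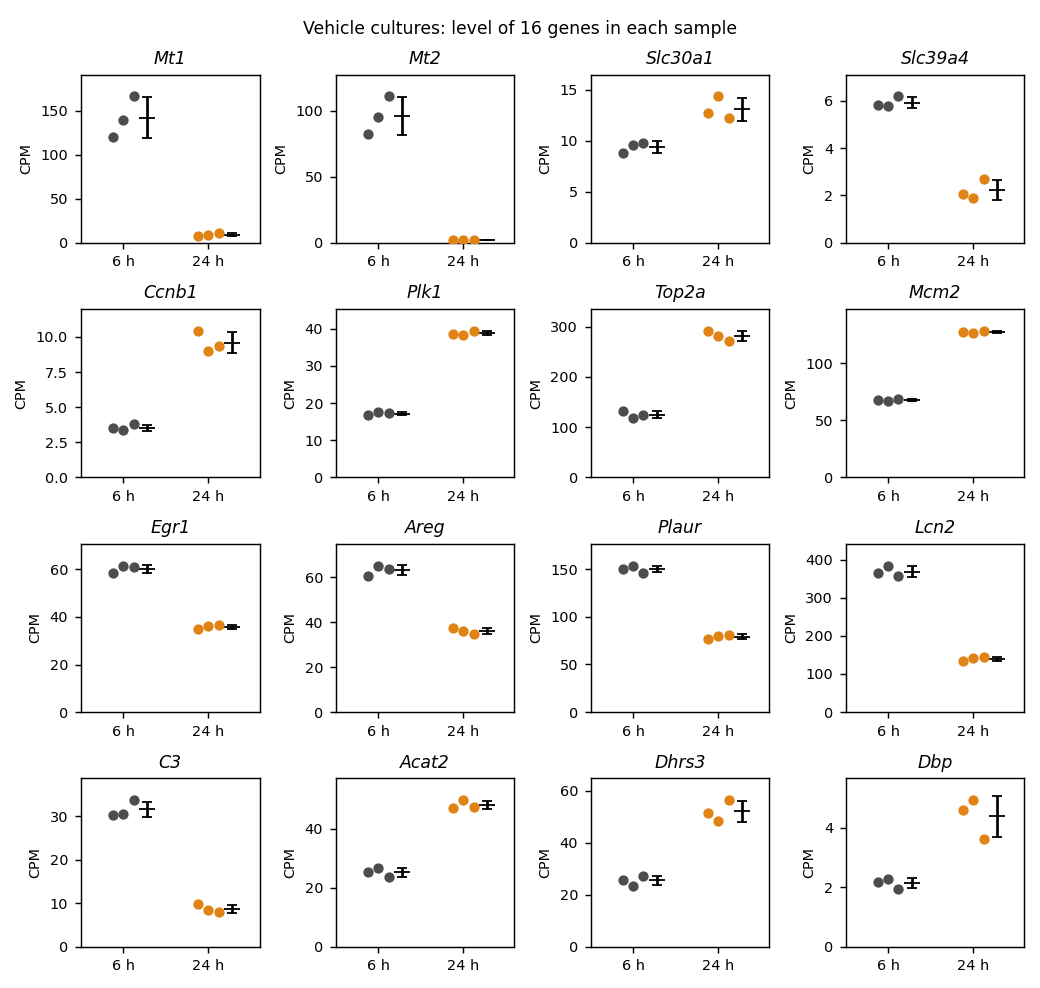
Level in CPM of 16 genes in each vehicle sample at 6 h (grey points) and 24 h (orange points), with the mean and SD (n = 3) as a bar beside them and each vertical axis starting at 0. In none of the 16 genes do the samples of the times overlap, and the metallothionein genes Mt1 and Mt2 drop to 9.13 and 1.98 CPM on average.

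Of 8 tested genes of the acute phase list 5 fell and 0 rose, beside 14.4% and 15.5% of all tested genes. More than 2-fold, 3 of them fell, namely C3, Lcn2 and Pglyrp1, while Cp (-0.20) and Wfdc2 (-0.12) fell by less. C3, the central complement component, was at 30.3, 30.6 and 33.6 CPM at 6 h and 9.82, 8.33 and 8.09 CPM at 24 h. Each 6 h sample was more than 3 times each 24 h sample (log2 fold change -1.82, SE 0.08, adjusted p = 1.22e-15). A second listed feature without a symbol ran beside it at 29.9 and 8.38 CPM on average, so reads may be split between them. Lcn2, the siderophore-binding NGAL used as a marker of tubular injury, was at 364, 384 and 357 CPM at 6 h and 134, 141 and 144 CPM at 24 h, without overlap (log2 fold change -1.40, SE 0.07, adjusted p = 3.75e-15). Lbp, the lipopolysaccharide binding protein gene, fell from 5.25 ± 0.238 to 1.98 ± 0.593 CPM (-1.5).

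Of 23 tested chemokine, cytokine and NF-κB target genes 10 fell and 2 rose, the 2 being Il33 (0.80) and Cxcl10 (0.83). Among all tested genes 14.4% fell and 15.5% rose, so these rises did not exceed the background. The GM-CSF gene Csf2 fell from 7.72 ± 0.812 to 3.34 ± 0.659 CPM (-1.21). Il1f6, the gene of interleukin 36 alpha, fell from 5.06 ± 0.559 to 1.56 ± 0.212 CPM (-1.73), and Nos2, the inducible nitric oxide synthase gene, from 1.31 ± 0.125 to 0.394 ± 0.220 CPM (-1.92). Nos2 rests on few reads, and its value lay between -2.35 and -1.34 when single vehicle samples were left out. Interferon-stimulated genes were on the other side, with 7 of 24 risen and 0 fallen and a median log2 fold change of 0.38. Their leading members, the GTPase gene Gbp2 (1.12, adjusted p = 0.0108) and the viperin gene Rsad2 (1.10, adjusted p = 0.00539), were below 2 CPM in all 6 samples.

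Without added TWEAK, 4 of 10 genes of TWEAK, its receptor and the non-canonical NF-κB pathway fell and 1 rose. Of all tested genes 14.4% fell and 15.5% rose, so the single rise did not exceed the background. The receptor gene Tnfrsf12a was at 491, 513 and 486 CPM at 6 h and 388, 407 and 413 CPM at 24 h (log2 fold change -0.30, SE 0.04, adjusted p = 6.82e-07), the 2 ranges not overlapping. Relb fell from 43.2 ± 0.626 to 30.1 ± 2.13 CPM (-0.51) and Nfkb2, which encodes p100, from 149 ± 4.54 to 129 ± 5.32 CPM (-0.21). Birc3 fell (-0.33) and Birc2 rose (0.29), both being ligases of the complex that degrades NIK. Map3k14, the gene of NIK itself, was at 55.3 ± 2.92 and 56.0 ± 2.51 CPM, with overlapping samples and an adjusted p of 0.912.

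The remaining genes among the 10 that fell most were of mixed kind. Sprr2h, of the small proline-rich proteins of the cornified envelope, fell from 1.64 ± 0.136 to 0.402 ± 0.162 CPM (log2 fold change -2.03), and Urah, of purine breakdown, from 1.749 ± 0.225 to 0.613 ± 0.116 CPM (-1.55). Prnd, the doppel gene beside the prion protein gene, fell from 18.8 ± 1.20 to 6.26 ± 0.567 CPM (-1.6). The listed feature Prn moved with it (-1.31), and reads may be shared between them.

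Most lipid synthesis genes rose, by less than 2-fold. Of 25 tested genes of sterol synthesis and uptake 23 rose and 0 fell, none more than 2-fold, with a median log2 fold change of 0.35. The background was 15.5% for a rise and 14.4% for a fall. Acat2, the cytosolic thiolase at the start of the pathway, was at 25.3, 26.7 and 23.8 CPM at 6 h and 47.1, 49.6 and 47.4 CPM at 24 h (log2 fold change 0.93, SE 0.06, adjusted p = 4.10e-13), without overlap. The later enzymes Dhcr7 (0.61) and Mvd (0.60) and the SREBP regulator Insig1 (0.42) had larger log2 fold changes than the squalene epoxidase gene Sqle (0.29). Of 14 fatty acid synthesis genes 12 rose and 1 fell (Me1, -0.28), led by the desaturase gene Scd1, from 4.91 ± 0.663 to 8.96 ± 0.810 CPM (0.87), with the fatty acid synthase gene Fasn at 0.28. The lipid droplet coat gene Plin2 fell from 382 ± 5.18 to 259.7 ± 6.65 CPM (-0.55). Of 30 nuclear-encoded genes of the respiratory chain 1 rose (Sdha, 0.09) and 1 fell (Ndufa1, -0.12), and of 20 genes of ribosome biogenesis 0 rose and 2 fell, below the background in each direction.

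The clock genes moved in both directions, 7 of 17 tested members rising and 4 falling, beside 15.5% and 14.4% of all tested genes. Among the 19 promoter windows of 14 members with an entry, 31.6% held the E-box CACGTG, against 7.2% of all windows. Dbp, an output gene of the clock whose own window held no E-box, was at 2.18, 2.28 and 1.95 CPM at 6 h and 4.59, 4.91 and 3.62 CPM at 24 h, without overlap (log2 fold change 1.05, SE 0.15, adjusted p = 3.53e-06). The repressor genes Bhlhe41 (0.43), Nr1d1 (0.29) and Per1 (0.24) rose, and Arntl, the BMAL1 gene, fell from 18.3 ± 1.38 to 14.0 ± 0.477 CPM (-0.40). With only the times of 6 h and 24 h, a rhythm was not tested. Of 10 tested retinoid and AhR-responsive genes 4 rose and 1 fell. Cyp26a1, which degrades retinoic acid and is induced by it, rose from 1.08 ± 0.0638 to 3.02 ± 0.369 CPM (log2 fold change 1.47, adjusted p = 7.24e-06), and Dhrs3, which reduces retinaldehyde, from 25.5 ± 1.90 to 51.9 ± 3.95 CPM (1.02). Aldh1a3, which makes retinoic acid, fell from 20.9 ± 0.724 to 13.5 ± 1.05 CPM (-0.64).

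The tested genes of the epithelial identity and tubular injury lists changed by less than 2-fold. The injury marker gene Lcn2, counted above in the acute phase list, fell by more than 2-fold. Krt18 fell from 4840.2 ± 171 to 4098 ± 51.4 CPM (log2 fold change -0.24), Cdh1 from 1400.3 ± 37.95 to 1083 ± 10.3 CPM (-0.37) and Cldn4, a tight junction gene, from 2661 ± 69.3 to 1959 ± 38.9 CPM (-0.44), while Pax8 rose (0.25) and so did Cldn2, the leaky claudin of the proximal tubule (0.73). Of 11 tested genes of the proximal tubule list 2 rose and 2 fell, near the background in both directions. Cubn was among those that rose, from 3.22 ± 0.391 to 4.25 ± 0.276 CPM (0.39, adjusted p = 0.0384). Of 11 tubular injury genes 8 fell and 2 rose, beside 14.4% and 15.5% of all tested genes, the rises being near the background. The integrin gene Itgb6 fell from 45.8 ± 1.80 to 26.7 ± 2.84 CPM (-0.75), the osteopontin gene Spp1 from 638 ± 5.84 to 515 ± 17.4 CPM (-0.31) and Sox9, a factor of tubular repair, from 292 ± 11.4 to 253 ± 1.36 CPM (-0.21). Havcr1, the gene of the injury marker KIM-1, was at 5.00, 3.94 and 4.74 CPM at 6 h and 3.65, 2.73 and 3.996 CPM at 24 h (-0.38, adjusted p = 0.0305), and its samples overlapped. Vcam1 rose (0.51), as did Prom1 (0.48).

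**Figure D4:**
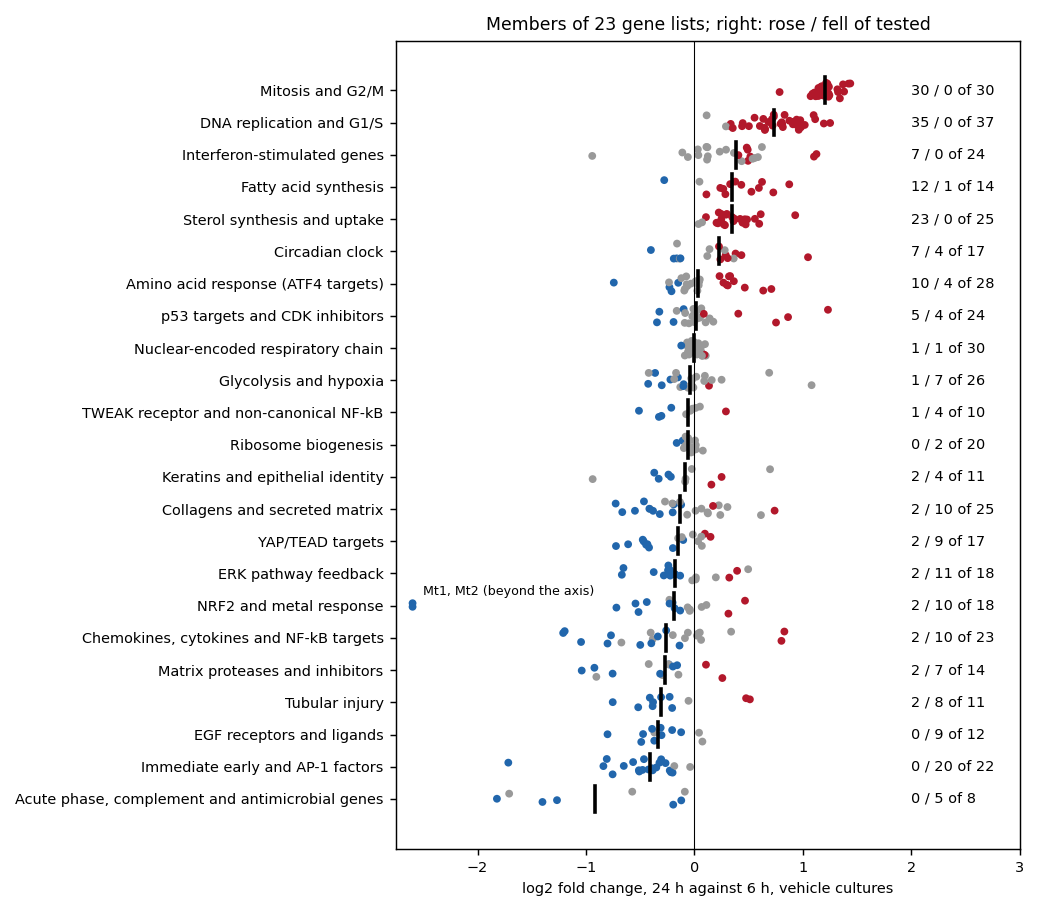
Log2 fold change, 24 h against 6 h, of the tested members of 23 gene lists in vehicle cultures, each point a gene (red rose, blue fell, grey not past an adjusted p of 0.05), black bars the list medians and the numbers at the right the genes that rose and fell of those tested. The lists run from a median of 1.20 for mitosis to -0.92 for the acute phase genes, and Mt1 and Mt2 are drawn at the left edge, beyond the axis.

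The same genes were read in the treated cultures, which share no sample with the vehicle arm but carry TWEAK. Past an adjusted p of 0.05, 2721 genes rose (17.5%) and 2764 fell (17.8%) with time in the TWEAK cultures, and 2620 rose (16.9%) and 2652 fell (17.1%) with TWEAK and NIK SMI1. More than 2-fold, 207 rose (1.33%) and 215 fell (1.39%) in the former and 309 rose (1.99%) and 162 fell (1.04%) in the latter. Of the 264 genes that rose more than 2-fold in vehicle, 204 also rose in TWEAK cultures and 208 in TWEAK plus NIK SMI1 cultures. More than 2-fold, 103 did so in TWEAK cultures, which is 39.02% of the vehicle genes and 49.8% of the TWEAK genes, and 183 with the inhibitor, 69.3% and 59.2%. Of the 75 that fell more than 2-fold, 44 fell in TWEAK cultures and 46 with the inhibitor, 33 and 36 of them more than 2-fold. These 33 genes were 44.0% of the vehicle genes and 15.3% of the TWEAK genes, and the 36 were 48.0% and 22.2%. Across all tested genes, the log2 fold changes with time in vehicle correlated with those in TWEAK cultures at a Pearson's r of 0.47 and with the inhibitor at 0.51, a description across genes, which are not independent replicates.

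The fall of Mt1 and Mt2 was present in all arms, with log2 fold changes for Mt2 of -4.69 in TWEAK cultures and -5.94 with the inhibitor and for Mt1 of -3.48 and -4.25, and the differences from vehicle did not pass the test (adjusted p from 0.0578 to 0.663). All 30 mitosis genes rose in both treated arms, with medians of 1.09 and 1.22 beside 1.20 in vehicle. Of the 22 immediate early genes 15 fell in TWEAK cultures and 20 with the inhibitor. Of the 25 sterol genes 10 rose and 4 fell in TWEAK cultures, and 18 rose and 0 fell with the inhibitor.

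The difference of the time effect itself was tested as an interaction over all genes. It passed for 1383 genes (8.91%) between TWEAK and vehicle cultures and for 447 (2.88%) between TWEAK plus NIK SMI1 and vehicle cultures. Among the genes that rose more than 2-fold in vehicle, 47 differed in the TWEAK arm and 3 with the inhibitor, and among those that fell 22 and 15. These genes were chosen by their vehicle change, which also enters the tested difference, so their counts cannot be set against the all-gene shares. In the DNA replication list, where the median with time was 0.57 in TWEAK cultures, 0.81 with the inhibitor and 0.73 in vehicle, 14 of 37 differed in the TWEAK arm and 0 with the inhibitor, and in the sterol list 13 and 4 of 25. Mmp9, which fell in vehicle, rose with time in the TWEAK cultures (log2 fold change 1.84) and with the inhibitor (0.85), and both differences passed (adjusted p = 6.02e-13 and 4.52e-08). Cyp26a1, which rose in vehicle, had a log2 fold change of 0.08 in TWEAK cultures (adjusted p of the difference 0.0154). Lcn2 fell by 2.63 on the log2 scale in each treated arm, further than in vehicle (adjusted p = 4.20e-10 and 2.94e-09).

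**Figure D5:**
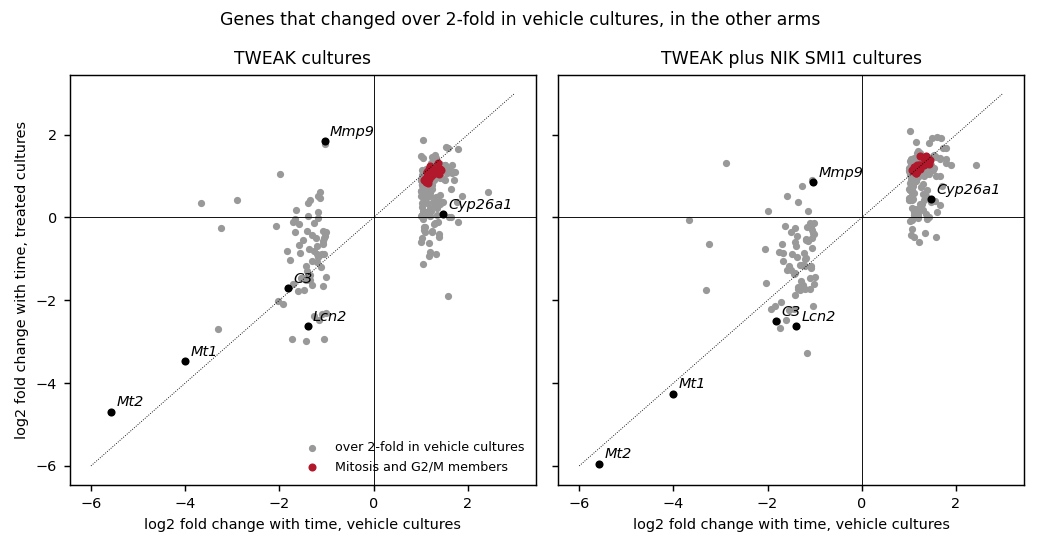
Log2 fold change with time in TWEAK cultures (left) and TWEAK plus NIK SMI1 cultures (right) against that in vehicle cultures, for the 339 genes that changed more than 2-fold in vehicle, with mitosis genes in red, 6 genes named and a dotted line of equal change. Mitosis genes cluster on the line in both panels, Mt1 and Mt2 fall in all arms, and Mmp9 lies on the opposite side of 0 in the treated arms.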

How the data were processed

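RNA was measured by RNA sequencing in 18 cultures. GSNAP, run by the authors within HTSeqGenie, placed reads on NCBI build 37 of the mouse, and the deposited raw count of a gene is its number of uniquely placed exonic reads. The same files hold RPKM values that the authors computed from those counts and the gene widths, which were used only for checks of depth. Symbols were taken from RefSeq by gene identifier. Genes with more than 10 reads in at least 4 of the 18 samples were fitted as 6 groups with edgeR 4.0.16 (R 4.3.3, TMM factors, quasi-likelihood test, Benjamini-Hochberg adjustment), and a gene was called at an adjusted p under 0.05. Some list members are counted but not reported by name here. The script was tested on simulated data. Named genes were the 10 that rose and the 10 that fell most without overlap of samples and with a mean of at least 1 CPM in the higher group, up to 4 members of each list with the largest called changes, and members with a textbook role. Genes and families outside this rule are said to be so where they appear. The groups compared and the gene lists were chosen with earlier results of these data known. Alternatives were DESeq2 1.42.0, other scalings, filters, depths and fold cut-offs, the vehicle samples alone, and each vehicle sample left out. Promoter windows came from RefSeq on GRCm38.p6, a later build than that of the counts, and no coordinates were carried between builds.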

Additional observations from a re-analysis of the deposited data

Results flagged for a closer look

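The results below were picked out because the time effect itself differed between arms, by the edgeR interaction test at an adjusted p under 0.05. Each value is the log2 difference of the change from 6 h to 24 h, the treated arm minus the vehicle arm, with 3 samples in each of the 4 groups it rests on. A positive value means a larger rise or a smaller fall in the treated cultures.

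Between TWEAK and vehicle cultures, Mmp9, which fell in vehicle, differed by 2.88. Further positive differences in the TWEAK arm among the genes named above were those of Csf2 (0.53), Jag1 (0.45), Slc7a11 (0.44), Plin2 (0.42), Hmox1 (0.36), Atf3 (0.35), Relb (0.34), Sparc (0.30), Myc (0.25) and Lce1g (1.6). Among inflammatory and acute phase genes the difference was -1.37 for Il33, -1.35 for Cp, -1.23 for Lcn2, -1.21 for Il1f6 and -0.42 for Wfdc2. In the TWEAK arm 14 of the 37 replication genes and 4 of the 30 mitosis genes differed, beside 8.91% of all tested genes. The mitosis count lay near that share. The replication genes named above had -0.36 for Rrm2, -0.33 for Tk1, -0.31 for Mcm10 and -0.19 for Mcm2, and Aurkb and Top2a of the mitosis list had -0.26 each. Esco2 differed by -0.58 and Cenpi by -0.38. Lipid synthesis genes had -0.98 for Scd1, -0.46 for Mvd and -0.42 for Acat2.

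Epithelial and retinoid genes were also on the negative side, with -1.7 for Cldn2, -1.4 for Cyp26a1, -0.78 for Dhrs3, -0.56 for Spp1, -0.44 for Prom1 and -0.19 for Cdh1. Further negative differences among the named genes in the TWEAK arm were those of Flt1 (-0.73), Notch3 (-0.66), Gclc (-0.42), Egfr (-0.36), Tfrc (-0.33), Plau (-0.31), Egr1 (-0.29), Bhlhe41 (-0.27), Hspa5 (-0.23) and Timp2 (-0.22).

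Between TWEAK plus NIK SMI1 and vehicle cultures, Mmp9 differed by 1.89. Further positive differences among the genes named in the report were 0.34 for Jag1, 0.28 for Plin2 and 0.14 for Sparc. Acute phase and inflammatory genes differed by -1.22 for Lcn2, -0.97 for Cp, -0.95 for Il1f6, -0.72 for Il33, -0.68 for C3 and -0.26 for Wfdc2. Prnd differed by -0.86 and the overlapping Prn by -0.45. Smaller negative differences were those of Flt1 (-0.56), Notch3 (-0.54), Spp1 (-0.42), Egr1 (-0.36), Gclc (-0.36), Mvd (-0.27), Plaur (-0.23), Timp2 (-0.21), Fth1 (-0.2) and Nfkb2 (-0.2).

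Genes averaging under 0.2 CPM in vehicle gave large values from few reads. Gm32605 differed by 4.03 in the TWEAK arm and 3.61 with the inhibitor, Sox8 by 3.31 and 4.2, and Atp13a4 by 2.99 in the TWEAK arm.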

How the results depend on the processing

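Leaving out single vehicle samples gave 2026 to 2206 risen and 1832 to 2105 fallen genes, and 253 to 289 and 62 to 82 over 2-fold. Other scalings, filters and depths, DESeq2 and the vehicle samples alone gave 247 to 270 risen and 66 to 76 fallen genes over 2-fold. A test against 2-fold itself (glmTreat) gave 47 risen and 12 fallen genes, and a cut-off of 1.5-fold gave 650 and 220, by the construction of these rules. The largest move of the interaction count with the inhibitor was to 650. Over all alternatives 0 named genes changed direction. Among those described with their role, Cubn, Havcr1, Cxcl10, Ptpn14, Gadd45b, Birc3, Cp, Sdha, Ndufa1, Gbp2, Rsad2, Timp2 and Wfdc2 lost the call under at least 1 alternative, as did Kif1b, Kif2a, Sprr2e and low genes such as Sox8, and Nr4a2 gained it under 1. The cause was not tested. No paired analysis was possible because the labels give the samples no replicate numbers that pair the times. Sample depth limits genes under 1 CPM, where 3 reads were worth up to 0.152 CPM, and counting error alone sets that floor.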

Other observations

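Gene families were also collected by symbol after the data were seen, and 4 of the kinesins and 3 of the centromere proteins among them stand in the mitosis list already. The background over all tested genes was 15.5% for a rise and 14.4% for a fall. Of 41 tested kinesin genes 23 rose and 5 fell, 11 rising more than 2-fold, led by the mitotic motors Kif14 (log2 fold change 1.34), Kif18b (1.32) and Kif18a (1.29), while Kif2a (-0.18) and Kif1b (-0.17) fell. Of 20 centromere protein genes 17 rose and 0 fell, led by Cenpn (1.36) and Cenpi (1.35), with a median of 0.90. Outside the mitosis list, 19 of 37 kinesin genes rose and 5 fell, and 14 of 17 centromere protein genes rose and 0 fell. Among 22 genes of intraflagellar transport and the BBSome, which build and serve cilia, 12 rose and 0 fell, with Ift80 at 0.78 and Bbs9 at 0.64. Of 20 nucleoporin genes 11 rose and 0 fell, with Nup107 at 0.65. Of 75 cytoplasmic ribosomal protein genes 2 rose and 0 fell. Of 9 tested genes of the cornified envelope 5 fell, among them Sprr2e (-1.83), Lce1f (-1.59) and Lce1g (-1.14), and 1 rose, Sprr1a (0.35), by far the most abundant of them. Of 20 zinc transporter genes 2 rose and 3 fell, near the background in both directions, and Slc39a4 was the only one past 2-fold.

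Signalling and stress lists not described above follow, beside a background of 15.5% of tested genes for a rise and 14.4% for a fall. In the Notch pathway 3 of 11 tested genes fell and 2 rose, the rises being near that background. The ligand gene Dll4 fell from 46.5 ± 0.455 to 21.9 ± 0.616 CPM (SD, n = 3 each, log2 fold change -1.09) and Jag1 from 986 ± 39.5 to 636 ± 23.3 CPM (-0.63), while the receptor gene Notch3 rose from 14.1 ± 0.360 to 22.9 ± 0.506 CPM (0.69). Of 28 ATF4 targets 10 rose and 4 fell, with the serine synthesis gene Psat1 at 0.71. Of 26 genes of glycolysis and hypoxia 7 fell and 1 rose, with the glucose transporter gene Slc2a1 at -0.43. Heat shock genes fell in 5 of 13 and rose in 0, and endoplasmic reticulum chaperones fell in 4 of 16 and rose in 1, with Hspa5, the BiP gene, at -0.42. The iron storage gene Fth1 fell (-0.38) and the transferrin receptor gene Tfrc rose (0.33). Of 19 lysosome and autophagy genes 9 fell and 4 rose, with the protease gene Ctsl at -0.28.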
